A study of Mus musculus with 48 samples.

Results

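Metallothioneins and genes that respond to glucocorticoids were followed in mouse liver, heart, spleen and lung. The set holds 6 of the 8251 genes named by the platform annotation: Mt1, Mt2, Zbtb16, Fkbp5, Tsc22d3 and Sgk1. They were chosen by name, with earlier results of these data known, and every probe set that the platform annotation gives to 1 of them was taken. That yielded 7 probe sets of the 12422 that were tested. Zbtb16 is read by 2 probe sets and the other genes by 1 each. Values called Zbtb16 are those of its first probe set, whose name ends in g_at, and the second probe set is named as such.

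RNA came from 2 inbred strains, A/J and C57BL/6J, with samples of all 4 tissues labelled time 2 or time 1. The labels do not say what the times stand for, and they name no treatment, genotype other than the strain, or aim. All mice were males of 3 months, 3 littermates for each tissue at each time, and 1 Affymetrix array was run per sample, which gives 48 arrays in 16 groups. The labels do not say whether 1 mouse gave several tissues, or how many litters were used, so that p-values measure the spread between these animals. By the names of the scanned files the arrays fall into 4 runs: all tissues at time 2 share 1 run, liver and lung at time 1 share another, and spleen and heart at time 1 have 1 each. Within every tissue the change between times is therefore also a change between runs, and time and run cannot be told apart. The strains always share a run where they are compared, so that their differences, and the difference between their time changes, lie within runs.

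Metallothioneins are small cysteine-rich proteins that bind zinc and copper, and their genes are switched on by metals through the transcription factor MTF1 and also by glucocorticoids and inflammation, in liver above all. Glucocorticoids, the steroid hormones of the adrenal cortex, bind a receptor encoded by Nr3c1, which then moves to the nucleus and binds DNA near its target genes. Fkbp5 and Tsc22d3 are widely used readouts of that receptor: FKBP5 is a co-chaperone that lowers the receptor's affinity for hormone, and TSC22D3, also called GILZ, dampens inflammatory transcription. Zbtb16 encodes the zinc finger repressor PLZF, and Sgk1 a kinase that acts on ion channels, and both are induced by glucocorticoids in many cell types.

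In the RefSeq models of assembly GRCm38.p6, Zbtb16 lies at chr9:48651797-48836225, Fkbp5 at chr17:28398753-28486149, Tsc22d3 at chrX:140539528-140600522 and Sgk1 at chr10:21882184-21999903. Mt1, at chr8:94178883-94180327, and Mt2, at chr8:94172618-94173567, are neighbours, with 5315 bases between the end of Mt2 and the start of Mt1. Promoter windows of 300 bases (250 before and 50 after an annotated start) were available for 5 of the 6 genes. The windows of Mt1 and Mt2 are shown because they carry the short core of the metal response element, which is bound by MTF1. Capitals mark each match to the core TGCACNC or TGCGCNC on either strand. The sequences are those of RefSeq, on the plus strand, 5′ to 3′, for Mt2 at chr8:94172368-94172667 and for Mt1 at chr8:94178839-94179138. The annotated start used for the Mt1 window lies inside the Mt1 model given above, which begins at 94178883, so that most of this window is within the model.
Mt2: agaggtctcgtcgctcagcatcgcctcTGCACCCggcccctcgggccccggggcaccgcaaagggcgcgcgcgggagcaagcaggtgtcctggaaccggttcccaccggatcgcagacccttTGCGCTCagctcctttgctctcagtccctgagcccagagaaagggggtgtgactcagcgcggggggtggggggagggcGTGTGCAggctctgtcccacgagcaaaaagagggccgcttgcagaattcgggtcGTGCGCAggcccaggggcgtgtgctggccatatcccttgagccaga
Mt1: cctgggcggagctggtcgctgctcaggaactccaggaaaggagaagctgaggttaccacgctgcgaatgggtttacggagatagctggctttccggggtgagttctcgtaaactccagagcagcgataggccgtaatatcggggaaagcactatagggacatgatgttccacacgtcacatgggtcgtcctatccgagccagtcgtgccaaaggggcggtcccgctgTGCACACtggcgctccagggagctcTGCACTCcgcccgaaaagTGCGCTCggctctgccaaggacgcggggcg
The Mt2 window held 4 cores and the Mt1 window 3, and 1 core was also found in a window of another Sgk1 start (chr10:21994416-21994715, plus strand), which is not shown. At least 3 cores were found in 1.97% of the 32851 promoter windows of the same length, and at least 4 in 0.517%. For the glucocorticoid receptor the palindrome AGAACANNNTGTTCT was searched on both strands. It was found in 1 window of the set, that of an Sgk1 start at chr10:21993640-21993939 on the plus strand, and in 3 of the 32851 windows. That window is shown with the palindrome in capitals.
Sgk1: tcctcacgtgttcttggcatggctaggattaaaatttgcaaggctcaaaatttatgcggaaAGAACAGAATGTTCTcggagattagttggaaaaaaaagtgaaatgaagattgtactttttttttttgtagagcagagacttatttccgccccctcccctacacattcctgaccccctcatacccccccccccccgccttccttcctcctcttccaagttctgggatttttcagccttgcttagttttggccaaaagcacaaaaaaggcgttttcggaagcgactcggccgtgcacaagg
Of the 12 windows of the 5 genes, 6 belong to alternative starts of Sgk1 and 3 to starts of Tsc22d3. A match describes these letters only, and where none was found nothing follows about the factor.

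Values are the deposited log2 values, on which a difference of 1 is a doubling. A test was passed when limma's p, adjusted over all 12422 probe sets with the Benjamini-Hochberg method, was below 0.05. The labelled tissues matched their defining markers. The mean of the hepatocyte markers was between 13.25 and 13.50 in liver and no higher than 10.68 elsewhere, and that of the cardiomyocyte markers was between 13.71 and 13.93 in heart and no higher than 10.76 elsewhere. Lung epithelial markers averaged up to 13.19 in lung and at most 11.05 elsewhere, and B cell markers 11.07 to 11.84 in spleen and at most 9.60 elsewhere. Markers of exocrine pancreas stood above 11 in 6 arrays, 5 of spleen and 1 of C57BL/6J liver at time 2. The difference between the 3′ and 5′ probe sets of Gapdh, a sign of RNA quality, was above 1 in 2 of the 3 A/J hearts at time 1. It was also above 1 in every lung at time 2, in C57BL/6J lung 1 of time 1 and in A/J spleen 1 of time 1. On the ground of Gapdh only the 2 hearts were left out, so lung calls were not tested for it. That spleen is among those with high pancreas markers. Member results called within a strain or between strains that rest on the 6 arrays or the 2 hearts are also given without them.

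Fkbp5 and Zbtb16 showed the same pattern in every tissue: the A/J group at time 2 had the lowest mean of the 4 groups. In liver, Fkbp5 measured 9.61, 9.88 and 9.60 in the A/J mice at time 2 and 11.83, 10.92 and 10.71 in those at time 1. In C57BL/6J liver it measured 11.22, 11.50 and 10.68 at time 2 and 10.79, 11.02 and 10.85 at time 1. Every A/J liver at time 2 was thus below every other liver. The A/J change was -1.45 (SE 0.24, adjusted p = 0.000991, limma), a 2.74-fold lower level, while the C57BL/6J change was 0.25 (SE 0.24, adjusted p = 0.398). In bulk tissue, fewer cells of a type and less RNA per cell cannot be told apart.

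**Figure D1:**
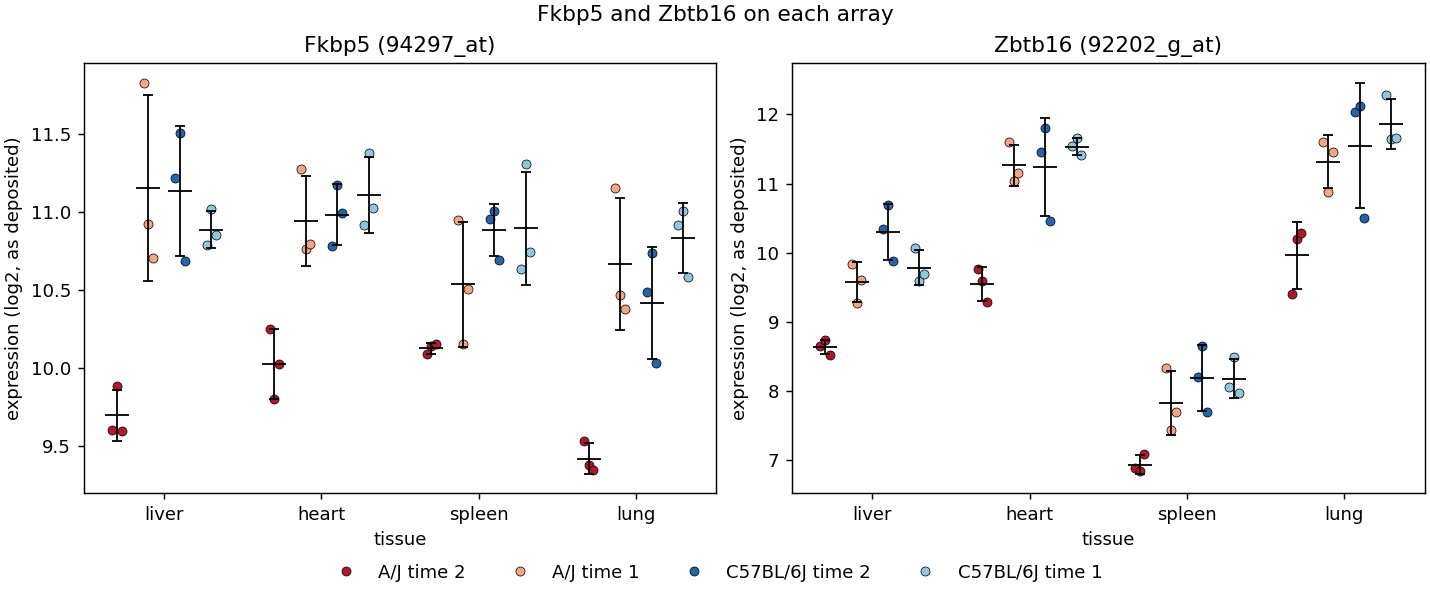
Fkbp5 and Zbtb16 in each of the 48 arrays. The vertical axis is the deposited log2 value, points are single mice, and bars give the mean and SD of each group of 3, with tissues along the horizontal axis. The A/J mice at time 2 have the lowest group mean in every tissue for both probe sets.

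Zbtb16 gave 8.65, 8.73 and 8.53 in A/J liver at time 2 and 9.84, 9.27 and 9.61 at time 1. In C57BL/6J liver it gave 10.34, 10.69 and 9.88 at time 2 and 10.07, 9.59 and 9.69 at time 1. The A/J groups did not overlap, and the C57BL/6J groups did. It fell by 0.94 in A/J (SE 0.19, adjusted p = 0.00303), a 1.92-fold lower level, and rose by 0.52 in C57BL/6J (SE 0.19, adjusted p = 0.0327). The C57BL/6J call was lost when the liver with high pancreas markers was left out (0.32, adjusted p = 0.148), and also when any of 3 other single livers was.

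In heart the same genes were lower in A/J at time 2. Fkbp5 measured 10.25, 9.80 and 10.03 in A/J hearts at time 2 and 11.28, 10.76 and 10.79 at time 1, against 10.78, 11.17 and 10.99 in C57BL/6J hearts at time 2 and 10.92, 11.38 and 11.02 at time 1. Zbtb16 measured 9.76, 9.60 and 9.29 in A/J hearts at time 2 and 11.60, 11.04 and 11.16 at time 1, with 11.46, 11.81 and 10.45 in C57BL/6J hearts at time 2 and 11.54, 11.65 and 11.41 at time 1. For both genes all 3 A/J hearts at time 2 were below the other 9 hearts. Lung epithelial markers averaged 9.38 to 9.57 in A/J hearts at time 2 and 9.61 to 10.10 at time 1. In C57BL/6J hearts they averaged 9.34 to 10.39 at time 2 and 10.29 to 11.05 at time 1, and their part in the heart values was not tested. The A/J change was -0.92 for Fkbp5 (SE 0.16, adjusted p = 0.00156) and -1.72 for Zbtb16 (SE 0.26, adjusted p = 0.000702), and the C57BL/6J changes of -0.12 and -0.29 did not pass the test. The Gapdh difference was 1.34, 0.10 and 1.41 in the A/J hearts at time 1. Without the 2 high arrays, which leaves 1 A/J heart at time 1 that is assumed to vary like the other groups, the A/J changes were -0.73 for Fkbp5 (adjusted p = 0.0417) and -1.49 for Zbtb16 (adjusted p = 0.0297).

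Lung gave the lowest Fkbp5 values of the study. They were 9.53, 9.38 and 9.35 in A/J lungs at time 2 and 11.15, 10.47 and 10.38 at time 1, against 10.49, 10.74 and 10.03 in C57BL/6J lungs at time 2 and 10.91, 11.002 and 10.58 at time 1. The A/J change was -1.25 (SE 0.20, adjusted p = 0.000720). Zbtb16 was 9.40, 10.19 and 10.29 in A/J lungs at time 2 and 11.61, 10.88 and 11.46 at time 1, a change of -1.36 (SE 0.37, adjusted p = 0.0136). In C57BL/6J lungs it was 12.03, 12.12 and 10.50 at time 2 and 12.28, 11.64 and 11.66 at time 1, so the third mouse at time 2 stood well below its group. Cardiomyocyte markers averaged 10.76 in that lung, against 9.10 and 9.28 in the others of its group, and their part was not tested. The Zbtb16 call was lost without A/J lung 1 of time 2 (-1.08, adjusted p = 0.0674) and without A/J lung 1 of time 1 (-1.21, adjusted p = 0.0533). The Gapdh difference in A/J lungs was 1.36 to 1.962 at time 2 and 0.66 to 0.93 at time 1, and hepatocyte markers averaged 8.82 to 9.12 at time 2 and 10.25 to 10.68 at time 1. The part of either in these changes was not tested.

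In spleen only the Zbtb16 change passed the test in A/J, and neither gene passed in C57BL/6J. Fkbp5 measured 10.09, 10.14 and 10.15 in A/J spleens at time 2 and 10.95, 10.15 and 10.51 at time 1, a change of -0.41 that did not pass the test (SE 0.19, adjusted p = 0.126). Zbtb16, low in spleen, measured 6.88, 6.84 and 7.09 in A/J at time 2 and 8.34, 7.44 and 7.69 at time 1, with 8.20, 8.66 and 7.70 in C57BL/6J at time 2 and 8.06, 8.50 and 7.98 at time 1. All 3 A/J spleens at time 2 were below the other 9 spleens. The group means of 6.94 to 8.19 lay below the spleen array medians of 8.88 to 9.02, which limits the reading of Zbtb16 in spleen. The change of -0.89 passed the test (SE 0.25, adjusted p = 0.0188), but not without the 5 spleens with high pancreas markers (-0.50, adjusted p = 0.0975), which leaves 1 A/J spleen at time 1 that is assumed to vary like the other groups, nor without A/J spleen 2 of time 2 (-0.84, adjusted p = 0.0635) or A/J spleen 1 of time 1 (-0.63, adjusted p = 0.0732). In A/J spleens hepatocyte markers averaged 9.66 to 10.37 at time 2 and 8.74 to 8.75 at time 1, erythroid markers 11.96 to 12.24 at time 2 and 11.37 to 11.66 at time 1, and their part in the change was not tested.

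The second Zbtb16 probe set did not follow the first. Its values lay between 8.50 and 9.58 over all 48 arrays, and none of its 8 time changes, 4 strain differences in time change or 8 strain differences passed the test. The correlation between both probe sets over the 48 arrays, after the mean of each tissue was subtracted, was 0.29, against 0.85 between Zbtb16 and Fkbp5. The arrays share tissue, strain and run, so these correlations describe the arrays and carry no test.

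Mt1 lay above at least 84.9% and Mt2 above at least 82.8% of the probe sets on every array, and neither sat at the highest value of an array. A tie for that highest value was seen on 18 arrays, all from time 1 and none from heart. Time 1 livers had 11 to 14 tied probe sets each, at 14.31 to 14.36. Time 2 livers had 1 probe set at the top, at 14.52 to 14.54. Whether such a ceiling narrowed the Mt1 values of liver, or moved their strain difference in time change, was not tested. In liver both genes fell in C57BL/6J. Mt1 measured 12.61, 12.91 and 12.88 in C57BL/6J livers at time 2 and 13.66, 13.88 and 13.55 at time 1, and Mt2 measured 11.61, 12.18 and 12.30 at time 2 and 13.11, 13.14 and 12.90 at time 1. For both genes the groups of that strain did not overlap. In A/J livers Mt1 measured 14.16, 13.84 and 14.00 at time 2 and 14.15, 13.97 and 13.76 at time 1, and Mt2 13.78, 12.90 and 13.34 at time 2 and 13.58, 13.34 and 12.76 at time 1. The A/J groups overlapped for both. The change in C57BL/6J was -0.89 for Mt1 (SE 0.12, adjusted p = 0.000178) and -1.02 for Mt2 (SE 0.23, adjusted p = 0.00336). Without the liver with high pancreas markers it was -0.95 for Mt1 (adjusted p = 0.000484) and -1.09 for Mt2 (adjusted p = 0.00614). In A/J it was 0.03 for Mt1 (SE 0.12, adjusted p = 0.860) and 0.11 for Mt2 (SE 0.23, adjusted p = 0.751).

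**Figure D2:**
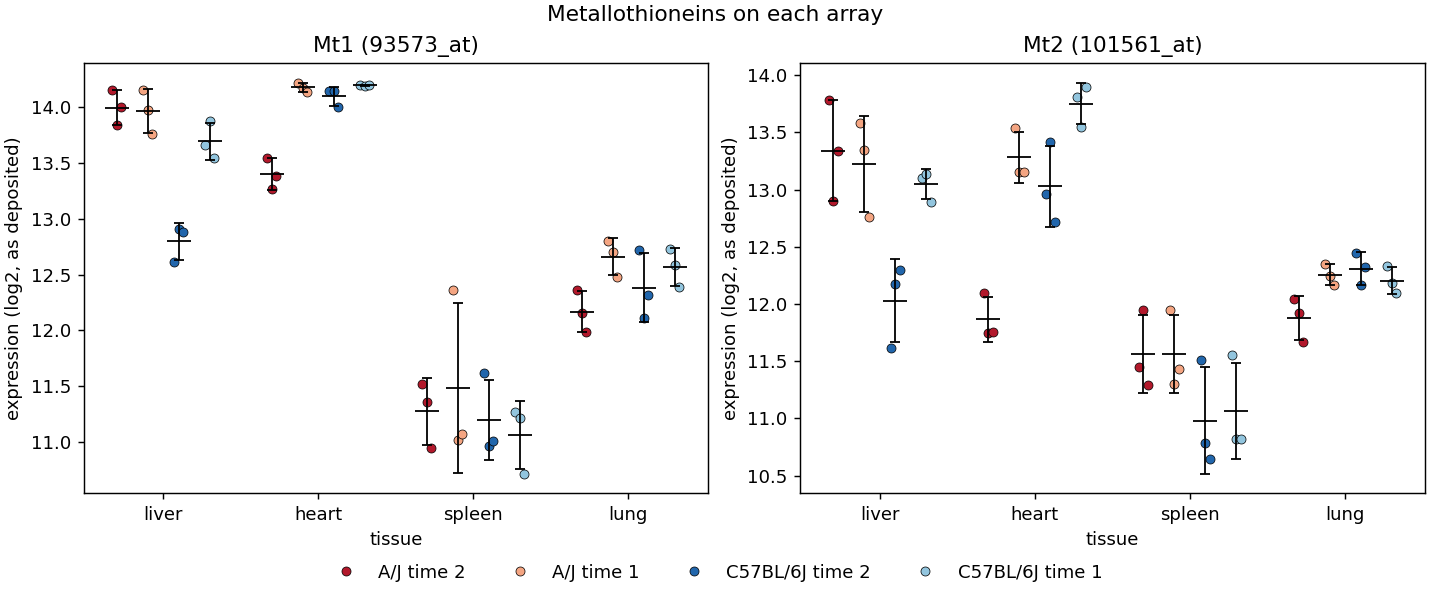
Mt1 and Mt2 in each of the 48 arrays. The vertical axis is the deposited log2 value, points are single mice, and bars give the mean and SD of each group of 3, with tissues along the horizontal axis. At time 2 the A/J livers are above the C57BL/6J livers for both genes, and the A/J hearts are below the C57BL/6J hearts.

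In heart both genes fell in A/J. Mt1 measured 13.55, 13.27 and 13.39 in A/J hearts at time 2 and 14.22, 14.18 and 14.14 at time 1, against 14.15, 14.15 and 14.00 in C57BL/6J hearts at time 2 and 14.20 in each at time 1. Mt2 measured 12.10, 11.75 and 11.75 in A/J hearts at time 2 and 13.54, 13.15 and 13.15 at time 1, against 12.96, 13.41 and 12.71 in C57BL/6J hearts at time 2 and 13.81, 13.55 and 13.90 at time 1. The A/J groups were apart for both genes. Mt1 fell by 0.78 in A/J (SE 0.07, adjusted p = 6.64e-05) and Mt2 by 1.42 (SE 0.17, adjusted p = 0.000161), a 2.67-fold lower level. In C57BL/6J hearts Mt2 fell by 0.72 (SE 0.17, adjusted p = 0.0140), and the call was lost without any 1 of 3 arrays (adjusted p up to 0.0576), while the Mt1 change of -0.10 did not pass (adjusted p = 0.393). Without the 2 A/J hearts with a high Gapdh difference, the A/J changes were -0.78 for Mt1 (adjusted p = 0.00461) and -1.29 for Mt2 (adjusted p = 0.00935).

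In lung both metallothioneins fell in A/J, and in spleen neither passed the test. In A/J lungs Mt1 measured 12.36, 12.15 and 11.99 at time 2 and 12.80, 12.70 and 12.48 at time 1 (change -0.49, SE 0.15, adjusted p = 0.0213), and Mt2 12.04, 11.92 and 11.67 at time 2 and 12.35, 12.24 and 12.17 at time 1 (change -0.38, SE 0.11, adjusted p = 0.0155). Both calls were lost without A/J lung 1 of time 1 or A/J lung 3 of time 2, and that of Mt1 also without A/J lung 2 of time 1, with adjusted p up to 0.0831. In the same A/J lungs hepatocyte markers averaged 8.82 to 9.12 at time 2 and 10.25 to 10.68 at time 1, and the Gapdh difference was 1.36 to 1.962 at time 2 and 0.66 to 0.93 at time 1, while both metallothioneins were higher in A/J liver than in A/J lung. The part of either in these changes was not tested. In C57BL/6J lung the changes of -0.19 and 0.11 did not pass. In spleen no change of Mt1 or Mt2 passed, and values ran between 10.71 and 12.36 for Mt1 and between 10.64 and 11.95 for Mt2.

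Of the time changes of Sgk1 those in spleen passed the test, and of those of Tsc22d3 the 1 in C57BL/6J liver. Sgk1 in spleen measured 10.07, 10.32 and 10.32 in A/J at time 2 and 9.79, 9.86 and 9.74 at time 1, and 10.18, 10.12 and 10.49 in C57BL/6J at time 2 and 9.92, 9.96 and 9.89 at time 1. All 6 spleens at time 2 were above all 6 at time 1. Sgk1 rose by 0.44 in A/J (SE 0.10, adjusted p = 0.00920) and by 0.34 in C57BL/6J (SE 0.10, adjusted p = 0.0471). Without the 5 spleens with high pancreas markers the differences were 0.37 (adjusted p = 0.162) and 0.21 (adjusted p = 0.592), with 1 A/J spleen left at time 1 and 1 C57BL/6J spleen at time 2, each assumed to vary like the other groups. With single arrays left out, the C57BL/6J call was lost without any of 5 of its 6 arrays. No Sgk1 change passed in liver, heart or lung, where the largest was 0.54 in C57BL/6J liver (SE 0.32, adjusted p = 0.168), with time 1 values of 10.15, 9.08 and 8.41 that spread widely. Tsc22d3 lay between 9.04 and 9.88 on all arrays, not far above the array medians of 8.87 to 9.02, which limits the reading of its small differences. Its 1 time change past the test was in C57BL/6J liver, where it measured 9.34, 9.64 and 9.45 at time 2 and 9.61, 9.69 and 9.88 at time 1 (-0.25, SE 0.09, adjusted p = 0.0292), with groups that overlap. That call was lost without any 1 of 3 arrays, and was -0.33 (adjusted p = 0.0101) without the liver with high pancreas markers.

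**Figure D3:**
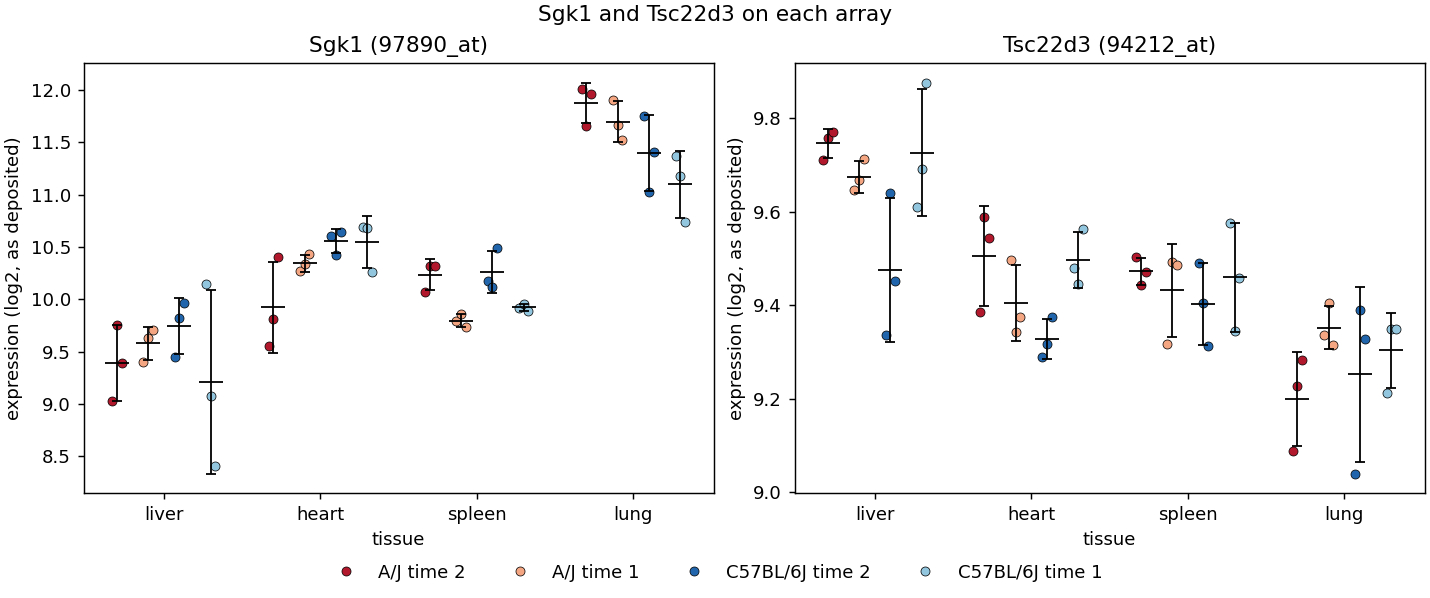
Sgk1 and Tsc22d3 in each of the 48 arrays. The vertical axis is the deposited log2 value, points are single mice, and bars give the mean and SD of each group of 3, with tissues along the horizontal axis. Sgk1 is highest in lung in all groups, and Tsc22d3 stays between 9.04 and 9.88.

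Over the time changes, 18 of 56 tests passed, 3 higher and 15 lower at time 2. In A/J, 2 of the 7 probe sets were called in liver, where 28% of all probe sets were called, 4 in heart (25.7%), 2 in spleen (28.9%) and 4 in lung (32.7%). In C57BL/6J, 4 were called in liver (52.3%), 1 in heart (13.1%), 1 in spleen (13.5%) and 0 in lung (11.2%, and also 0 at an unadjusted p below 0.05 with limma). In A/J heart and lung the members' share lay above the background, and in most of the other comparisons it was near or below it. In each, 7 probe sets are too few for a share to say much.

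The comparison that is free of an additive run effect is that of the time changes between the strains, which was tested directly. It passed for 3 of 7 probe sets in liver, where 4.9% of all probe sets passed, for 1 in heart (0.386%), and for 0 in spleen (0.209%) and 0 in lung (0.177%), where 1 and 2 had an unadjusted p below 0.05 with limma. In liver the A/J change minus the C57BL/6J change was -1.70 for Fkbp5 (SE 0.34, adjusted p = 0.0157), -1.46 for Zbtb16 (SE 0.27, adjusted p = 0.00960) and 0.93 for Mt1 (SE 0.17, adjusted p = 0.0109). The Mt2 estimate in liver was 1.13 (SE 0.33) and did not pass (adjusted p = 0.0645). Fkbp5 and Zbtb16 therefore differed between strains one way, and Mt1 the other way. These 3 liver calls held with any single liver left out, and without the liver with high pancreas markers (-1.52 for Fkbp5, -1.26 for Zbtb16 and 0.99 for Mt1, adjusted p up to 0.0307), but in 1 fit over all 48 arrays the adjusted p of Mt1 was 0.0512.

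In heart the strain difference in time change was -0.68 for Mt1 (SE 0.11, adjusted p = 0.0118). Its sign was opposite to that in liver, and Mt2 did not pass in heart. At time 1 heart Mt1 averaged 14.18 (SD 0.04) in A/J and 14.20 (SD 0.005) in C57BL/6J, with array maxima of 14.49 to 14.72. Whether closeness to the top of the scale narrowed these values was not tested. The call was lost without the 2 A/J hearts with a high Gapdh difference (-0.68, adjusted p = 0.121) and in the fit over all 48 arrays (-0.68, adjusted p = 0.549), where the spread of all tissues is pooled. For Fkbp5 the estimates outside liver were -0.79 in heart, -0.40 in spleen and -0.83 in lung, and for Zbtb16 they were -1.42, -0.89 and -1.05. All had the sign seen in liver, but none of these 6 passed the test, with adjusted p between 0.138 and 0.417. Whether liver differs from the other tissues in this was not tested.

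Set side by side within a run, the strains differed at time 2 and not detectably at time 1. At time 1, 0 of 28 tests passed with limma and 3 had an unadjusted p below 0.05, against a background of 2.93% in liver, 4.7% in heart, 2.91% in spleen and 2.14% in lung. At time 2, 13 of 28 passed. In liver 4 of 7 passed (12.9% of all probe sets), and A/J was higher for Mt1 by 1.198 (SE 0.12, adjusted p = 4.03e-05) and for Mt2 by 1.31 (SE 0.23, adjusted p = 0.00283), and lower for Zbtb16 (-1.67, SE 0.19, adjusted p = 9.80e-05) and Fkbp5 (-1.44, SE 0.24, adjusted p = 0.00195). In heart 4 passed (5.23%), all lower in A/J: Mt1 by -0.70, Mt2 by -1.16, Zbtb16 by -1.69 and Fkbp5 by -0.95. Without the liver with high pancreas markers the liver values were 1.25 for Mt1, 1.39 for Mt2, -1.47 for Zbtb16 and -1.25 for Fkbp5, with adjusted p up to 0.00894. Without the 2 A/J hearts with a high Gapdh difference, which belong to time 1, the heart calls held with adjusted p up to 0.00290. In spleen 2 passed (16%), Zbtb16 at -1.25 and Fkbp5 at -0.76. Without the spleens with high pancreas markers, which leaves 1 C57BL/6J spleen at time 2, they were -1.72 (adjusted p = 0.000491) and -0.88 (adjusted p = 0.00491). At time 2 the mean over 8 erythroid markers was 11.96 to 12.24 in A/J spleens and 9.07 to 9.72 in C57BL/6J spleens, that over 9 hepatocyte markers was 9.66 to 10.37 and 8.57 to 9.38, and their part in these differences was not tested. In lung 3 passed (10.2%), Zbtb16 at -1.59, Fkbp5 at -0.996 and Mt2 at -0.43.

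Fkbp5 and Zbtb16 were thus lower in A/J than in C57BL/6J at time 2 in all 4 tissues, in each with an adjusted p below 0.05. In spleen Zbtb16 read below the array medians, which limits that reading. The groups of 3 did not overlap for either gene in any tissue. Here and above, the share of all probe sets whose groups do not overlap was not computed, so that being apart only describes the values. Some of the calls rested on single arrays: Fkbp5 in spleen was lost without C57BL/6J spleen 1 of time 2 (-0.72, adjusted p = 0.0627) or A/J spleen 2 of time 2 (-0.76, adjusted p = 0.0525), and Zbtb16 in lung without A/J lung 1 of time 2 (-1.31, adjusted p = 0.0886) or C57BL/6J lung 2 of time 2 (-1.30, adjusted p = 0.0821). Mt2 in lung was lost without C57BL/6J lung 3 or A/J lung 3 of time 2, with adjusted p up to 0.0626. That C57BL/6J lung had the highest cardiomyocyte markers of its group (10.76, against 9.10 and 9.28). Mt2 averaged 13.03 in C57BL/6J heart and 12.31 in C57BL/6J lung at time 2. The part of these markers in the lung strain differences was not tested. Sgk1 in heart, at -0.63, stood just outside the test (adjusted p = 0.0505).

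The replicate numbers recur across tissues. In A/J at time 1, mouse number 1 had the highest Fkbp5, Zbtb16, Mt1 and Mt2 of its group in 4 of 4 tissues. In C57BL/6J, number 2 had the highest Fkbp5 in 4 of 4 tissues at time 2 and again at time 1, and for Zbtb16 at time 2 number 2 was highest and number 3 lowest in 4 of 4. The labels do not say that a number marks the same mouse. Across all probe sets, deviations from group means had a median correlation of 0.02 between equal numbers in different tissues of the same strain and time. Being taken over all probe sets, that value cannot decide whether tissues came from the same mice. The 4 tissues may therefore not be independent.

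At time 2, when all tissues shared a run, the levels of the members differed across tissues. Over both strains Mt1 averaged 13.75 in heart, 13.40 in liver, 12.27 in lung and 11.23 in spleen, and all neighbours in that order differed. The strains had heart and liver in opposite order: Mt1 averaged 14.00 in liver and 13.40 in heart in A/J, and 12.80 in liver and 14.10 in heart in C57BL/6J. Over both strains Mt2 averaged 12.69 in liver and 12.45 in heart (0.24, SE 0.17, adjusted p = 0.237), 12.09 in lung, which heart did not exceed past the test (0.35, SE 0.17, adjusted p = 0.0654), and 11.27 in spleen. These averages join opposite differences, since Mt2 averaged 13.34 in liver, 11.86 in heart and 11.88 in lung in A/J, and 12.03 in liver, 13.03 in heart and 12.31 in lung in C57BL/6J. Tissue differences within a strain were not tested. Sgk1 was highest in lung at 11.64, next in spleen at 10.25 and heart at 10.24, which did not differ detectably (-0.01, SE 0.14, adjusted p = 0.961), and lowest in liver at 9.57. Sgk1 was 4.19-fold lower in liver than in lung (-2.07, SE 0.14, adjusted p = 8.24e-12).

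Zbtb16 averaged 10.76 in lung and 10.39 in heart, 9.47 in liver and 7.56 in spleen. Lung and heart did not differ past the test (heart minus lung -0.36, SE 0.25, adjusted p = 0.204), and lung exceeded spleen 9.15-fold (3.19, SE 0.25, adjusted p = 1.22e-10 with limma). Zbtb16 read below the array medians in spleen, which limits that fold. Fkbp5 averaged 10.51 in spleen, 10.50 in heart and 10.42 in liver, with no difference among these past the test, and 9.92 in lung, below the other tissues. By strain, liver was below spleen in A/J (9.70 and 10.13) and above it in C57BL/6J (11.13 and 10.88). Tsc22d3 averaged 9.61 in liver, 9.44 in spleen, 9.42 in heart and 9.23 in lung, of which spleen and heart did not differ detectably (heart minus spleen -0.02, SE 0.06, adjusted p = 0.790). Without the 6 arrays with high pancreas markers the Tsc22d3 differences of liver from heart and from spleen no longer passed, and Mt2 was higher in heart than in lung (0.35, adjusted p = 0.0469).

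Between tissues at time 2 the members called were 4 of 7 for liver minus heart (56.8% of all probe sets), 6 for liver minus lung (66.1%), 6 for liver minus spleen (61.4%), 4 for heart minus lung (68.5%), 4 for heart minus spleen (67%) and 6 for lung minus spleen (53%). At time 1, when liver and lung shared a run, 6 of 7 differed between them (78.2%). Where 6 were called the share lay above the background, and where 4 were called it was near or below it. The time change in liver minus that in lung, averaged over strains, passed for 0 of the 7 with limma (28.4% of all probe sets). For Fkbp5 it was 0.23 (SE 0.24, adjusted p = 0.501), from -0.60 in liver and -0.83 in lung, and for Zbtb16 0.62 (SE 0.32, adjusted p = 0.147). At an unadjusted p below 0.05, also 0 of the 7 passed.

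Other genes known to respond to glucocorticoids were read from a list of 30, of which 28 were measured. This list and those below were chosen with earlier results of these data known. Their shares beside the background therefore describe the lists and are no independent support. In liver the strain difference in time change passed for 9 of them (32.1%, against 4.9% of all probe sets), all lower in A/J, with a median of -0.43 over the list against 0.06 over all probe sets. Igfbp1, a binding protein of insulin-like growth factors, had the largest estimate (-2.49, SE 0.55, adjusted p = 0.0229). Cebpd (-1.31, SE 0.17, adjusted p = 0.00165) and Cebpb (-1.02, SE 0.21, adjusted p = 0.0187) encode transcription factors of the C/EBP family. Pck1 (-0.84), the enzyme that commits carbon to glucose synthesis, Tat (-0.93), which breaks down tyrosine, and Tdo2 (-0.91), which breaks down tryptophan, are liver enzymes. Pdk4 (-1.03), an inhibitor of pyruvate oxidation, Angptl4 (-0.90), an inhibitor of lipoprotein lipase, and Gadd45b (-0.50), a stress response gene, complete the 9. Except for Angptl4 and Gadd45b, these genes are named because they passed, after their values were seen.

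The time changes behind these differences ran in both directions. In A/J liver the list had 2 genes higher and 9 lower at time 2 (39.3%, against 28% of all probe sets), and in C57BL/6J liver 5 higher and 3 lower (28.6%, against 52.3%). Cebpd averaged 8.66 ± 0.04 in A/J livers at time 2 and 9.68 ± 0.24 at time 1, against 9.98 ± 0.16 in C57BL/6J livers at time 2 and 9.69 ± 0.16 at time 1 (SD, n = 3 each). Tat averaged 12.78 ± 0.28 in A/J at time 2 and 13.26 ± 0.21 at time 1, against 13.66 ± 0.04 in C57BL/6J at time 2 and 13.22 ± 0.38 at time 1 (SD, n = 3 each). Compared within time 2, 14 of the 28 genes were lower in A/J liver and 1 higher (53.6%, against 12.9% of all probe sets), and within time 1, 1 was lower and 2 were higher (10.7%, against 2.93%). Probe sets of 1 gene did not always agree: the second Igfbp1 probe set gave 0.29, the other 3 of Angptl4 gave -0.72, 0.50 and 0.23, and the second of Gadd45b gave -1.69.

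**Figure D4:**
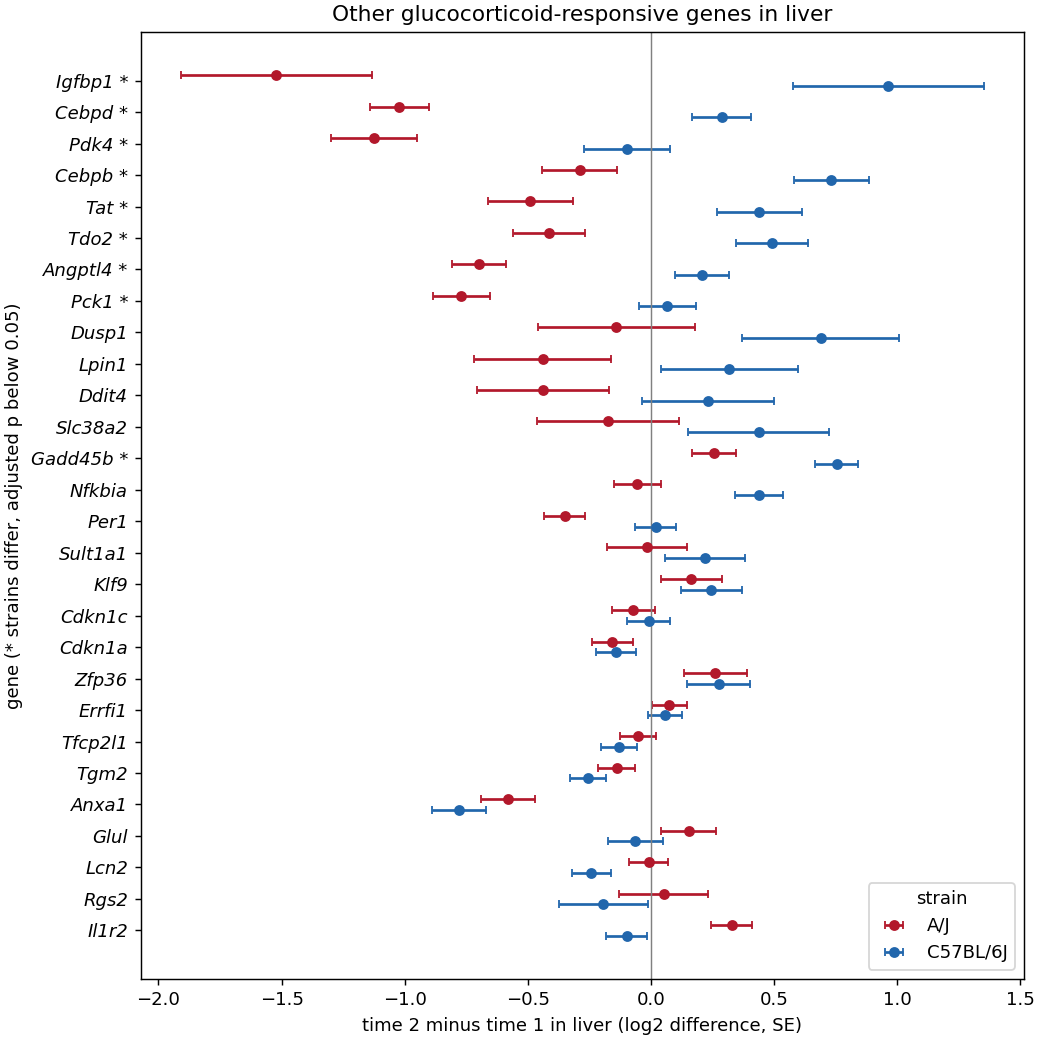
Time 2 minus time 1 in liver, in log2 units, for the 28 measured genes of the glucocorticoid list, with A/J and C57BL/6J as separate points and bars of 1 SE. An asterisk marks the 9 genes whose changes differ between strains, all of them lower in A/J.

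In the other tissues 0 of the 28 passed the strain difference in time change with limma, while 8 in heart, 8 in spleen and 9 in lung had an unadjusted p below 0.05. Its time changes in A/J were 3 higher and 9 lower in heart (42.9%, against 25.7% of all probe sets), 1 and 3 in spleen (14.3%, against 28.9%), and 1 and 11 in lung (42.9%, against 32.7%). In C57BL/6J they were 1 higher and 4 lower in heart (17.9%, against 13.1%), 3 and 1 in spleen (14.3%, against 13.5%), and 1 and 3 in lung (14.3%, against 11.2%). The genes with the smallest p were Cdkn1a, a cell cycle inhibitor, in A/J heart (-0.79, SE 0.08, adjusted p = 6.64e-05), Angptl4 in A/J lung (-0.87, SE 0.09, adjusted p = 4.48e-05), Errfi1, a feedback inhibitor of the EGF receptor, in A/J lung (-1.28, SE 0.15, adjusted p = 0.000106), and Gadd45b in C57BL/6J liver (0.76, SE 0.09, adjusted p = 6.33e-05). At time 2 A/J was lower for 4 genes and higher for 0 in heart (14.3%, against 5.23%) and in lung (14.3%, against 10.2%), and lower for 6 and higher for 1 in spleen (25.0%, against 16%).

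The receptor and the proteins that act on it were read from a list of 15, with 11 measured. Nr3c1, the receptor gene itself, did not differ between strains in its time change in any tissue with limma, and was lower at time 2 in A/J lung (-1.28, SE 0.18, adjusted p = 0.000349), in C57BL/6J lung (-0.69) and in C57BL/6J liver (-0.39). The probe set used for Nr3c1 read low, with group means of 5.70 to 6.97 against array medians of 8.87 to 9.02, which limits both readings. Serpina6, which encodes the corticosteroid-binding globulin that carries the hormone in blood, averaged 12.74 ± 0.15 in A/J livers at time 2 and 10.57 ± 0.07 at time 1, against 10.97 ± 0.12 in C57BL/6J livers at time 2 and 10.54 ± 0.54 at time 1 (SD, n = 3 each). It rose by 2.16 in A/J liver (SE 0.19, adjusted p = 1.08e-05), and its strain difference in time change was 1.74 (SE 0.27, adjusted p = 0.00418), opposite in sign to Fkbp5. Its second probe set gave 0.70 and did not pass. Hsp90aa1, a chaperone of the receptor, gave -1.46 (SE 0.11, adjusted p = 1.95e-05) by its brighter probe set and 0.02 by the other.

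Of that list, 3 genes passed the strain difference in time change in liver (27.3%, against 4.9% of all probe sets). Besides Serpina6 and Hsp90aa1 this was Stip1, a co-chaperone (-0.64) that is named after its value was seen. In lung 1 passed (9.09%, against 0.177%), Nr2f2, a nuclear receptor (0.83, by 1 of its 2 probe sets). Heat shock genes were read because Hsp90aa1 and Fkbp5 belong to chaperone complexes. In liver 6 of 12 passed (50%, against 4.9%), all lower in A/J: Hspa1b (-1.73), Hspa8 (-1.49), Hsph1 (-1.23), Dnaja1 (-0.69), Bag3 (-0.57) and Hspe1 (-0.51), with a median of -0.47 over the list. In A/J liver 4 of the 12 were lower at time 2 and 0 higher (33.3%, against 28% of all probe sets), and in C57BL/6J liver 8 were higher and 2 lower (83.3%, against 52.3%). Hspa1b, Hspa8 and Hsph1 are named after their values were seen. With limma 0 passed in heart, spleen or lung, where 1, 2 and 3 had an unadjusted p below 0.05. By their time changes with the smallest p, Hspe1 was higher in A/J lung (0.64), Dnaja1 (0.53) and Bag3 (0.60) were higher in C57BL/6J liver, and Cryab, a small heat shock protein, was lower in A/J spleen (-0.60).

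The metal list, with 15 of 18 genes measured, gave 0 strain differences in time change past limma's test in any tissue, and 6 in liver, 3 in heart, 5 in spleen and 2 in lung had an unadjusted p below 0.05. Its time changes were mixed: in liver 2 were higher and 5 lower in A/J (46.7%, against 28% of all probe sets), and 4 higher and 5 lower in C57BL/6J (60.0%, against 52.3%). The related metallothionein gene Mt3, best known from brain, was lower at time 2 in A/J spleen (-0.57), and Mt4, known from squamous epithelia, in C57BL/6J heart (-0.47). The zinc transporter genes Slc30a5 (-0.52) and Slc30a4 (-0.47) were lower in A/J liver. For each of these genes the change named is the one with the smallest p. Mt3 had group means of 11.84 to 12.37 in liver, heart and lung, and its mean was lower at time 2 in both strains of each. The Slc30a5 mean was lower at time 2 in both strains of liver, heart and spleen (8.14 against 8.40 in C57BL/6J liver). These 2 falls were thus not particular to the group named. In heart the metal list had 2 higher and 4 lower in A/J (40%, against 25.7%), and 1 higher and 3 lower in C57BL/6J (26.7%, against 13.1%).

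Acute phase genes, which inflammation induces in liver, had 18 of 19 members measured. In liver the strain difference in time change passed for Apcs (1.23), the serum amyloid P component, and Fga (-0.50), a fibrinogen chain. That was 11.1% of the list, against 4.9% of all probe sets. Apcs rose in A/J liver by 1.61 (SE 0.11), Fga in C57BL/6J liver by 0.59, and Fgg, another fibrinogen chain, fell in A/J lung by 1.03 and Stat3 by 0.46. Fgg averaged 6.00 in A/J lungs at time 2 and 7.03 at time 1, and at least 11.83 in each liver group. Hepatocyte markers in the same lungs averaged 8.95 at time 2 and 10.46 at time 1, and their part in the Fgg change was not tested. Clock genes had 13 of 16 measured, and 1 passed the strain difference in time change, Per2 in lung (-0.69). That was 7.69% of the list in lung, against 0.177% of all probe sets. In A/J lung Per2 (-0.65), Tef (-0.66) and Cry2 (-0.54) were lower at time 2 and Nr1d1 higher (0.82), and in liver 1 clock gene was higher and 3 lower in A/J (30.8%, against 28%), and 2 higher and 3 lower in C57BL/6J (38.5%, against 52.3%).

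The genes whose pattern was most like that of each member were found among the genes outside the set, by Pearson correlation over the 48 arrays after the mean of each tissue was subtracted. For Fkbp5 they were Pnpla2 (0.79), a triglyceride lipase, Cdkn1a (0.78) and Txnip (0.77), an inhibitor of thioredoxin. For Zbtb16 they were Sult1a1 (0.81), a sulfotransferase, Txnip (0.80) and Serpina3n (0.75), a serine protease inhibitor. Outside the set Mt1 was closest to Elovl1 (0.63), Mmp8 (0.62) and Zfp316 (0.62), and Mt2 to Pcp4l1 (0.65), Cox6b2 (0.64) and Cyp4b1 (0.64). Mt1 and Mt2 correlated at 0.84 with each other and at 0.19 and 0.16 with Fkbp5. Sgk1 was closest to Nfkbia (0.68), Cebpb (0.66) and Rasd1 (0.66), and Tsc22d3 to Krt71 (0.69), Trim21 (0.68) and Foxb2 (0.67). The arrays share tissue, strain and run, so no test is attached.

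Pnpla2, the closest to Fkbp5 outside the set (Zbtb16 was closer, at 0.85), was lower at time 2 in A/J liver (-0.66), heart (-0.33), spleen (-0.46) and lung (-0.42). In C57BL/6J its changes of 0.11, 0.16, 0.01 and -0.19 did not pass, and the strain difference in time change passed in liver (-0.77, SE 0.18, adjusted p = 0.0267 with limma). Pnpla2 was picked for its likeness to Fkbp5 over these same arrays. Its changes therefore partly follow from that choice and are no separate support for the Fkbp5 pattern.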

How the data were processed

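RNA from 48 tissue samples was read on Affymetrix MG-U74Av2 arrays. Per the labels, 20 micrograms of total RNA were taken with Trizol. The authors deposited 1 value per probe set and array, read here as log2 from its range (4.25 to 14.7, array medians 8.87 to 9.02), and the software and normalization behind it are not given in the sources used here. Groups came from the titles. The 66 control probe sets were left out, and the values were fitted per tissue (tissue contrasts across tissues) with limma 3.58.1 in R 4.3.3 (lmFit, eBayes), with Benjamini-Hochberg adjustment over 12422 probe sets and a limit of 0.05. Of these, 10833 have 1 gene symbol in the platform annotation, 396 several and 1193 are not listed there. Lists use 1 probe set per gene, and the text names every member probe set, the list genes called with the smallest p over the time contrasts (up to 4 a list), those a result turns on, and the 3 genes most like each member. The members and lists were chosen with earlier results of these data known. The number of arrays limits the precision. Scripts were tested on simulated data. The alternatives tried were 2 scalings, a replicate block, 1 fit over all arrays, a filter on dim probe sets and left-out arrays.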

Additional observations from a re-analysis of the deposited data

Results flagged for a closer look

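The time change differed between the strains, by the test of that difference in limma, for 4 of the 28 tests of the members. Of all probe sets, 4.9% passed that test in liver, 0.386% in heart, 0.209% in spleen and 0.177% in lung. The A/J change minus the C57BL/6J change in liver was 0.93 for Mt1 (SE 0.17, adjusted p = 0.0109), -1.46 for Zbtb16 (SE 0.27, adjusted p = 0.00960) and -1.70 for Fkbp5 (SE 0.34, adjusted p = 0.0157). In heart it was -0.68 for Mt1 (SE 0.11, adjusted p = 0.0118). That heart call was lost without the 2 A/J hearts with a high Gapdh difference, which leaves 1 A/J heart at time 1. The signs for Mt1 in liver and in heart were opposite, and the difference between the tissues was not tested. The second Zbtb16 probe set did not pass in liver.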

How the results depend on the processing

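No member test changed sign past the threshold under any alternative. Of the 196 member tests, quantile normalization ended 1 call and added 2, subtraction of array medians ended 1 and added 0, the dim filter added 2, and 1 fit over all 48 arrays ended 8 and added 6. The 4 strain differences in time change held with every single array left out (adjusted p up to 0.0448), and in the fit over all arrays Mt1 was lost in liver (adjusted p = 0.0512) and in heart (adjusted p = 0.549). C57BL/6J liver Zbtb16 was lost under quantile normalization (0.48, adjusted p = 0.0584), and C57BL/6J liver Tsc22d3 with medians subtracted (-0.20, adjusted p = 0.0827). Deviations from group means in same-numbered samples had a median correlation of 0.02, within and across tissues over 72 pairs each. Being taken over all probe sets, that value cannot decide whether a number marks 1 mouse. The numbers were not taken as pairs in the main fits. With the replicate block, C57BL/6J spleen Sgk1 was lost (adjusted p = 0.0511), lung Sgk1 gained a strain difference at time 1 (0.60) and time 2 (0.48), and the probe sets called were 3 for the strain difference in time change in spleen (26 without it), 52 in lung (22 without it) and 2046 for the lung strain difference at time 2 (1270 without it). For the strain difference in time change in spleen, quantile normalization left 11, subtraction of medians 16 and the fit over all arrays 1124, and in lung that fit gave 274. It also gave 3146 calls for the C57BL/6J spleen time change (1681 otherwise), and 1095 and 3011 for the spleen strain difference at time 1 and time 2. The dim filter, which tests fewer probe sets, gave 2361 for the A/J spleen time change, 88 for the strain difference in time change in heart and 6437 for liver minus lung at time 1. The settings without the arrays with pancreas markers and without the 2 A/J hearts with a high Gapdh difference were chosen after seeing the data. Without the first, spleen had 62 calls in A/J and 75 in C57BL/6J over time, and 43 and 575 between strains at time 1 and time 2. Without the second, heart had 1197 over time in A/J, 7 for the strain difference in time change and 148 between strains at time 1. With single arrays left out, calls for the strain difference in time change ranged from 229 to 1213 in liver, 25 to 102 in heart, 0 to 337 in spleen and 4 to 91 in lung. The strain differences at time 2 ranged from 748 to 2256 in liver, 1206 to 2325 in spleen and 396 to 2222 in lung, and at time 1 from 158 to 318 in liver, 290 to 593 in heart, 165 to 415 in spleen and 143 to 206 in lung. The time changes ranged from 2237 to 3134 in A/J liver, 2106 to 4091 in A/J spleen, 2602 to 3724 in A/J lung, 803 to 1179 in C57BL/6J heart, 649 to 2237 in C57BL/6J spleen and 660 to 1707 in C57BL/6J lung. Without subtraction of tissue means, the correlation of Mt1 with Elovl1 was -0.26, of Mt2 with Pcp4l1 0.44, of Zbtb16 with Sult1a1 0.43 and of Fkbp5 with Pnpla2 0.32. The causes of these moves were not tested, other than the fewer probe sets or arrays that a setting holds.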
